A study of Mus musculus with 2 samples.

Results

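Of 23572 TCF12 peaks on mouse chromosomes 1 to 19 and X, 6919 (29.4%) had their summit within 1 kb of the annotated 5' end of a protein-coding gene and no main E-box at the summit. They were chosen from the peak list on the mm9 genome by position and sequence only. A main E-box was taken as CANNTG with the central bases GC, or with CC (GG on the other strand), and it counted when all its bases were at most 50 bp from the summit. The peaks come from chromatin immunoprecipitation and sequencing (ChIP-seq) of TCF12 in CH12.LX, an immortalised B-cell lymphoma line of mouse strain B10.H-2aH-4bp/Wts. There was 1 group of 2 biological replicates, with no treatment named in the labels and no second condition. The mm9 list joins both replicates, so their spread is shown only by the separate mm10 lists, and B cell markers could not be checked because expression was not measured. Read depth is not given, so intervals below are 95% intervals for counting error over peaks or genes.

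TCF12 (HEB) belongs to the E proteins, transcription factors with a basic helix-loop-helix domain. E proteins bind DNA as dimers at the E-box, CANNTG, and take part in B and T lymphocyte development, where ID proteins hold them off DNA by pairing with them. Promoters of widely expressed genes mostly lie in CpG islands and carry short motifs of other factors, among them ETS, YY1, CREB, NRF1, SP/KLF and NF-Y. ChIP-seq also recovers DNA that a protein reaches through other proteins, so a peak need not hold the protein's own motif.

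The members made up 85.6% (84.8 to 86.3) of the 8085 promoter peaks, and the other 1166 promoter peaks held a main E-box. Away from promoters, 9351 peaks also lacked a main E-box at the summit and 6136 held one, so its absence is not particular to promoters. The name describes only the summit. A main E-box ended within 100 bp of the summit in 12.6% of members and within 250 bp in 38.6%, and 1659 members (24.0%) held one somewhere in the called peak. Another CANNTG lay within 50 bp in 1228 members (17.7%), and 5691 (82.3%) had no E-box of any kind in that window.

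The following summit windows show members that hold a motif counted below, and 1 that holds none; 65.0% of members held none of the motifs called higher. The same motifs also occur at promoter peaks with a main E-box. Each is 101 bases of mm9, plus strand, centred on the summit and outside every annotated exon. Except for the last, each belongs to the strongest such member for its motif, and only that motif is in capitals. The Gpr155 window also holds ETS and CAAGTG, and the Gk5 window YY1, in lower case. The last, from the strongest member of all, matched none of the motifs searched and was chosen after its value was seen.
0610010K14Rik, ETS, chr11:70051471-70051571: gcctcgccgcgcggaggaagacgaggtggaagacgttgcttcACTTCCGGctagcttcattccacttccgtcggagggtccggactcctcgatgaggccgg
Gpr155, YY1, chr2:73224882-73224982: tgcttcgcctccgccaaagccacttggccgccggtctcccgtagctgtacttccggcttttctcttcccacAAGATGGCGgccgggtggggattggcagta
Gk5, CREB, chr9:96019577-96019677: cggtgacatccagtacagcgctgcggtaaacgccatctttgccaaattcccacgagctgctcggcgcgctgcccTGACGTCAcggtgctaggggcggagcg
Ankrd13c, ZBTB33, chr3:157610129-157610229: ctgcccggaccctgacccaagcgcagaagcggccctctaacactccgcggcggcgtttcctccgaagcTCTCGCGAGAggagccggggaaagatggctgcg
Pold2, NRF1, chr11:5778373-5778473: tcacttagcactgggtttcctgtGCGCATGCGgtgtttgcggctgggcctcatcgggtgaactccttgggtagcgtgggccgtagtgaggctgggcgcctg
Hist1h1c, NF-Y, chr13:23830549-23830649: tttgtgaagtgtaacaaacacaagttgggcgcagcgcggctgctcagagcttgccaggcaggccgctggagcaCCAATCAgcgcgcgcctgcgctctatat
Lrpprc, no listed motif, chr17:85190182-85190282: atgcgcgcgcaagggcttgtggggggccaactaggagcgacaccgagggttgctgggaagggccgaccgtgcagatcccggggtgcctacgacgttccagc

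YY1 sites in 5 of the strongest members that hold one are shown on the strand of the gene, with 10 bases to either side, because their orientation is described below. In 4 of the 5 the motif reads forward with the gene, and in Dcakd it reads backward and lies upstream of the 5' end. The Dcakd peak is also within 1 kb of the 5' end of Nmt1, and strand was read against the nearest gene only.
Taf5, chr19:47142242-47142270, plus strand: gctcagccgcAAGATGGCGgcgctggcgg
Dcakd, chr11:102889873-102889901, minus strand: cactctcatcCGCCATCTTgggttgcgag
Rpl7l1, chr17:46919566-46919594, minus strand: aagcaccggaAAGATGGCGgaggaagggt
Gosr1, chr11:76577037-76577065, minus strand: ttgggcaacaAAGATGGCGgcaggaacca
Usp21, chr1:173218032-173218060, minus strand: ggcaccaacaAAGATGGCGgcggcccttg

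Members had a higher median signal than peaks away from promoters. Their median peak signal, the value of the authors' caller, was 62.7 (61.6 to 63.8), with an interquartile range of 43.4 to 94.6. Promoter peaks with a main E-box had a median of 59.3 (56.2 to 61.9), and the ratio of the medians was 1.06. Dividing opposite ends of the intervals of the medians gives bounds of 0.995 to 1.13. These bounds are wider than a 95% interval for the ratio, so they do not decide whether the medians differ. Away from promoters the median was 48.3 (47.7 to 49.1) without a main E-box and 56.9 (55.8 to 58.1) with one. Members were scarcer among the very strongest peaks. They were 3 of the strongest 15 mm9 peaks, 13 of the strongest 100 and 218 of the strongest 1000 (21.8%), against 29.4% of all peaks. From the strongest to the weakest of 5 equal groups of all peaks, their share was 32.6%, 37.8%, 31.2%, 24.1% and 21.1%.

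Summits of members lay close around the 5' end. The median was 9 bp downstream, and the interquartile range ran from -67 to 75 bp, negative values being upstream. Within 100 bp were 59.7% (58.6 to 60.9) of members and 47.3% (44.4 to 50.1) of promoter peaks with a main E-box, and beyond 500 bp were 9.09% (8.44 to 9.79) and 18.5% (16.4 to 20.9). Both groups fell on the upstream side about equally, at 44.8% and 45.9%. In protein-coding transcripts, member summits fell in a UTR exon in 43.1%, a coding exon in 6.36% and an intron in 8.92%, and 41.6% lay outside. Among promoter peaks with a main E-box the intron share was 17.0% (14.9 to 19.2). Members close to the 5' end were also the stronger ones, with a median signal of 69.8 (68.5 to 71.6) within 100 bp, 54.2 (52.5 to 56.0) further out up to 500 bp and 48.1 (45.1 to 50.4) beyond 500 bp.

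**Figure D1:**
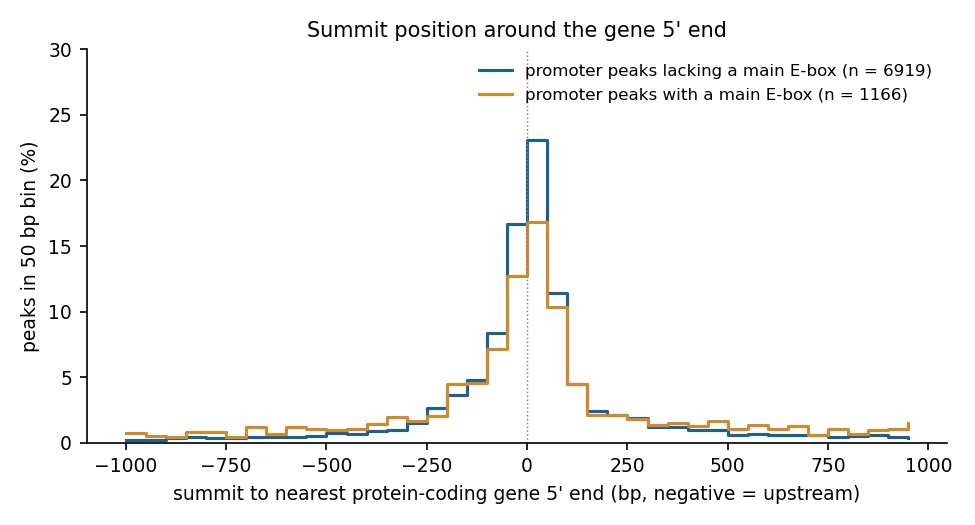
Share of peaks (y axis, %) by distance from the summit to the nearest protein-coding gene 5' end (x axis, bp, 50 bp bins, negative upstream), for the 6919 members and the 1166 promoter peaks with a main E-box. Both groups peak at the 5' end, and the members are more concentrated there, with 59.7% against 47.3% within 100 bp.

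At the edges of the rule, the 83 members in the last 100 bp of the promoter distance had a median signal of 45.9, and the 82 peaks in the first 100 bp outside it had 43.6. The 183 promoter peaks whose nearest main E-box ended 51 to 60 bp from the summit, just inside the members, had a median signal of 59.0, and the 187 with one ending at 41 to 50 bp had 67.0.

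Most members sat in CpG island-like sequence, taken as at least 50% GC and an observed over expected CpG ratio of at least 0.6 over the summit and 250 bp to either side. This held for 84.4% (83.6 to 85.3) of members, 67.2% (64.4 to 69.8) of promoter peaks with a main E-box and 47.7% of windows at all protein-coding 5' ends. The median GC content of the 101 bp window was 65.3% in both groups of promoter peaks. The median CpG ratio was 0.825 (0.819 to 0.830) in members and 0.728 (0.713 to 0.742) in the others. Island-like members had a median signal of 65.0 (63.8 to 66.1) and the 1076 remaining members 50.7 (49.0 to 52.6). Gene 5' ends on both strands lay within 1 kb of 13.2% of members (12.4 to 14.0) and 10.8% (9.15 to 12.7) of promoter peaks with a main E-box. The overlap of these intervals does not show equal shares, and the difference was not tested.

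Several motifs of general promoter factors were more frequent in member summit windows than in flanks. Each of 34 motifs was counted in the 101 bp summit window on both strands and in windows of the same length centred 300 bp to either side. A motif was called higher or lower where the intervals of the shares did not overlap and the ratio was at least 1.5 in either direction. In members 13 motifs were called higher, against 18 of 34 (52.9%) over all mm9 peaks, so the number called is no mark of the members. Another 4 were called lower, the same number as over all mm9 peaks (11.8%). They were a pair of E-boxes given below, the motif AGATAAG of GATA factors (ratio 0.375, 0.631% of all 5' ends) and TCF/LEF (CTTTGAT, ratio 0.360, 0.819% of all 5' ends). A control palindrome, CGATCG, to which no factor is assigned, had a ratio of 1.12 and was not called.

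ETS led the list. The motif CCGGAAGT, bound by ETS factors such as GABPA and ELF1, was in 7.24% (6.65 to 7.88) of member summits and 0.556% of flanks, a ratio of 13.0, and in 3.12% of windows at all protein-coding 5' ends. YY1, a zinc finger factor that both activates and represses, followed: AAGATGGCG was in 4.23% (3.79 to 4.74) of summits and 0.347% of flanks, a ratio of 12.2, and in 1.31% of all 5' ends. CREB, the cyclic AMP response factor, came next with TGACGTCA in 2.07% against 0.210%, a ratio of 9.86, and in 1.28% of all 5' ends. These 3 motifs coincided in few members, about as many as the product of their shares gives. ETS and YY1 were both in 19 members, where the product gives 21.2. ETS and CREB were both in 13 (product 10.4), of which 3 overlapped in sequence, and YY1 and CREB in 5 (product 6.06).

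Rarer and more common motifs completed the group. ZBTB33, also called Kaiso, had TCTCGCGAG in 0.939% of summits (ratio 9.29, and 0.470% of all 5' ends). NRF1, a regulator of mitochondrial genes, had GCGCATGCG in 1.76% (ratio 6.78, and 1.16% of all 5' ends). The SP/KLF motif GGGGCGGG was the most common at 10.1% of summits, with 4.42% in flanks (ratio 2.29), and its share of all 5' ends was 10.7%, no lower than at the members. NF-Y, which binds the CCAAT box, had CCAATCA or CCAATGG in 3.82% (ratio 1.88) and in 4.40% of all 5' ends. E2F, which drives genes of the S phase, had TTTCCCGC or TTTGGCGC in 1.27% (ratio 2.07, and 0.702% of all 5' ends), and ZNF143 had CTACAANTC in 0.824% (ratio 2.15, and 0.564% of all 5' ends).

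A ratio to flanks 300 bp away does not mean that the sites were centred on the summit. ETS and YY1 sites were: in 20 bp bins, ETS had 20.1 sites per 1000 members just before the summit and 4.62 at 80 to 100 bp before it, and YY1 12.9 and 1.73. SP/KLF sites dipped at the summit instead, with 20.5 per 1000 just before it, 30.9 at 80 to 100 bp before it and 33.0 at 80 to 100 bp after it. NF-Y sites dipped as well, with 8.09 just before and 7.37 just after the summit, against 15.5 at 60 to 80 bp before and 15.3 at 60 to 80 bp after. ZNF143 sites showed no maximum at the summit, with 2.17 just before it and 1.45 just after it, and 2.75 at 60 to 80 bp before it.

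One E-box outside the rule was among them. CACGTG, the E-box of MYC, MAX and USF, was in 4.93% (4.44 to 5.46) of member summits and 2.23% of flanks, a ratio of 2.21, and in 3.33% of all 5' ends. The other E-boxes were not raised at members. CATCTG had a ratio of 0.791, CATGTG 0.959, CAACTG 0.911, CAAGTG 0.689 and CAATTG 0.870, none called in that window, while CATATG (0.367) and CAAATG (0.509) were called lower. Their shares of all 5' ends were 4.62%, 3.45%, 4.62%, 3.89%, 0.823%, 0.689% and 2.95% in that order. At peaks away from promoters and also without a main E-box, CATCTG was in 15.4% of windows against 3.40% of members, a difference of -11.98 percentage points (-12.83 to -11.13).

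**Figure D2:**
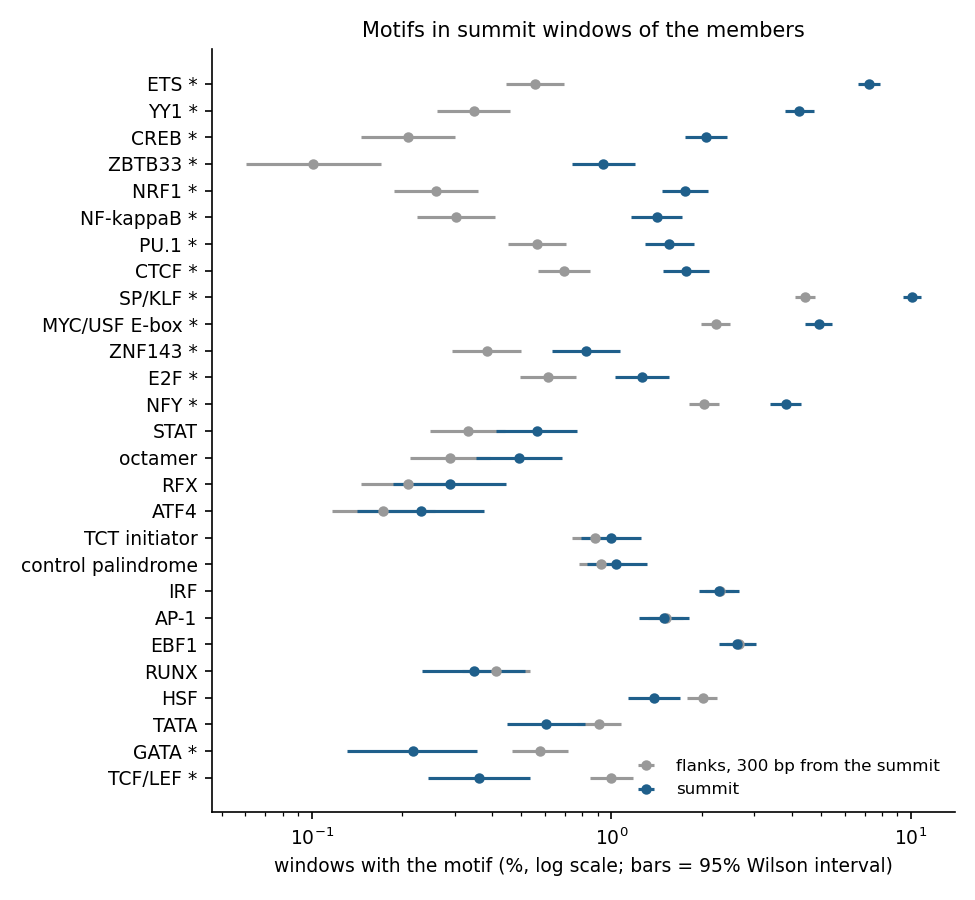
Share of the members' 101 bp windows that hold each motif (x axis, %, log scale) at the summit (blue) and in flanks 300 bp away (grey), with 95% Wilson intervals, and an asterisk for motifs called higher or lower. ETS at 7.24% against 0.556% and YY1 at 4.23% against 0.347% are the farthest apart, and the control palindrome overlaps. Of the E-boxes, only the MYC/USF one is drawn.

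Of 8 motifs of B cell factors, 2 were called higher in members, fewer than over all mm9 peaks. EBF1 (TCCCNNGGG) had a ratio of 0.986, AP-1 (TGANTCA) 0.990, IRF (GAAANNGAA) 0.994 and RUNX (TGTGGTTT) 0.842, and none was called. Their shares of all 5' ends were 2.11%, 1.95%, 2.85% and 0.438%. The octamer and STAT (TTCCNGGAA, 0.416% of all 5' ends) both had a ratio of 1.70 and were not called, but the octamer was called higher with promoters of 2 kb (2.14) and STAT among peaks above the median signal (2.25). PU.1 and SPIB (GAGGAAGT) had 1.56% against 0.564% in flanks, a ratio of 2.77 (1.45% of all 5' ends), and NF-kappaB (GGGANTTCC) 1.42% against 0.304%, a ratio of 4.67 (0.819% of all 5' ends). The NF-kappaB count is not independent of ETS and SP/KLF. Of its 98 members 28 also held ETS, with overlapping letters in 21, and 17 held SP/KLF, overlapping in 11. CTCF (CNAGGGGGC, ratio 2.56, 1.17% of all 5' ends) likewise overlapped SP/KLF in 20 of the 28 members that held both. Over all mm9 peaks EBF1 (ratio 2.22), PU.1 (4.27), AP-1 (2.99), RUNX (3.40), the octamer (4.96) and NF-kappaB (5.30) were called higher. IRF (1.31) and STAT (1.25) were not called there. Among promoter peaks with a main E-box, which are fewer, PU.1 was the only B cell motif called.

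Few motifs set members apart from promoter peaks that do hold a main E-box. Of 34 differences in share, 3 had an interval that left out 0. ETS was 2.61 percentage points (1.13 to 3.85) more common in members, CREB was higher by 0.87 points with a lower bound at 0.00, and AP-1 differed by -1.50 points (-2.67 to -0.61). No adjustment was made for the number of motifs. For YY1 the difference was 0.89 points (-0.39 to 1.91), for SP/KLF 0.94 (-0.98 to 2.63) and for CACGTG -0.47 (-2.00 to 0.80). Against peaks away from promoters without a main E-box, members held SP/KLF more often by 8.23 points (7.49 to 9.01), ETS by 6.11 (5.47 to 6.77) and YY1 by 3.88 (3.41 to 4.39), and differed in AP-1 by -9.71 points (-10.42 to -9.02).

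The motifs differed in how they went with signal. Members with YY1 had a median signal of 101 (91.8 to 111), and members without it 61.6. With ZBTB33 the median was 110 (84.6 to 123), with ETS 78.3 (73.9 to 81.7) and with CREB 75.2 (63.3 to 80.6), all above the members without each motif, at 61.5 to 62.5. In contrast, members with SP/KLF had 60.3 (56.6 to 64.4), with CACGTG 61.9 (56.7 to 68.7) and with NF-Y 57.8 (54.0 to 63.6), next to 62.7 to 62.8 without. From the strongest to the weakest of 5 equal groups of members, YY1 was in 9.91%, 4.48%, 3.54%, 1.88% and 1.37%. ETS ran 9.40%, 10.6%, 7.95%, 5.13% and 3.11%, while CACGTG stayed between 4.70% and 5.27%. Distance goes with these values: 75.1% of members with YY1 and 76.2% of those with ETS had the summit within 100 bp of the 5' end, against 59.7% of all members, and its part in the signal was not tested.

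YY1 sites had a preferred side and strand. Of 294 sites in members, 235 (79.9%, 75.0 to 84.1) read forward on the strand of the nearest gene, as in Taf5, Rpl7l1, Gosr1 and Usp21 above, and 254 (86.4%) lay downstream of its 5' end. Their median position was 32 bp downstream. ETS sites were centred on the 5' end, with a median of -0.50 bp, and 56.9% (52.7 to 61.0) read forward. Upstream medians were found for CREB (-14.5 bp), SP/KLF (-16.5 bp), ZNF143 (-43.0 bp) and NF-Y (-45.0 bp), and 22.5% of NF-Y sites lay downstream.

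**Figure D3:**
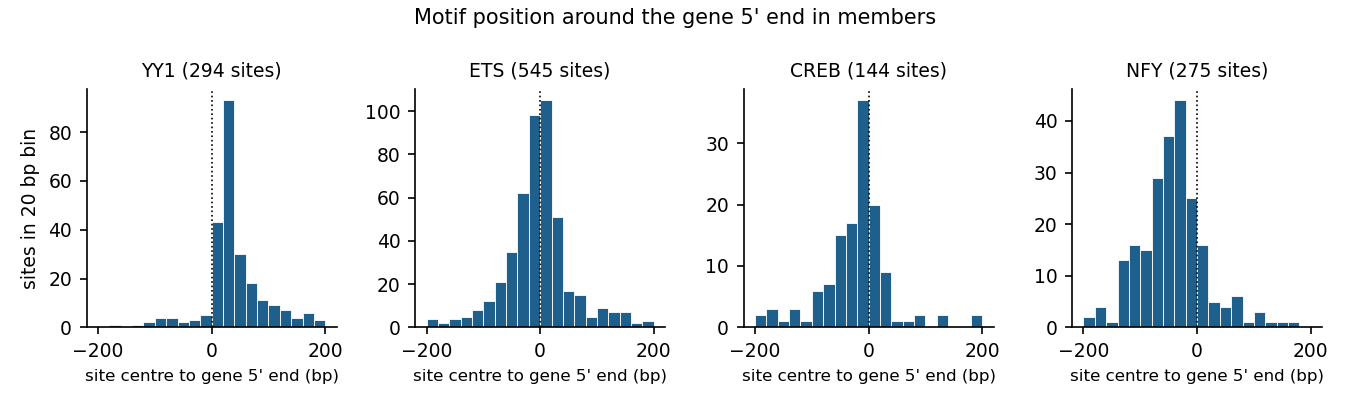
Number of motif sites in members (y axis, 20 bp bins) by the distance of the site centre from the nearest gene 5' end (x axis, bp, negative upstream), for YY1, ETS, CREB and NF-Y (labelled NFY). YY1 sites gather just downstream with a median of 32 bp, ETS sites straddle the 5' end, and NF-Y sites lie upstream with a median of -45.0 bp.

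A minority of members held a motif called higher. Motifs were matched only as written, so a member counted with none may hold a variant. For example, CCGGAAGC, which differs from the ETS motif in its last letter, was in 5.36% of member summits and 0.614% of flanks. None of the 13 was present in 4495 members (65.0%), 1 in 1998 (28.9%), 2 in 378 (5.46%) and 3 or more in 48 (0.694%). With all 33 motifs apart from the control, 3415 members (49.4%) still held none. Members with none of the 13 had a median signal of 59.6 (interquartile range 41.6 to 90.0) and included the strongest of all, and those with 1 had 68.0 (46.3 to 101).

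Peaks in the members' class covered a large part of the genome's promoters. Of 22350 protein-coding genes, 6961 (31.1%, 30.5 to 31.8) had one, and their median strongest signal was 67.2. A peak was within 1 kb of 1 gene in 5955 members, of 2 in 943 and of 3 in 21, so some genes below share a peak.

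Genes of protein synthesis stood well above the 31.1% of all genes. The shares of this and the other lists largely reflect how many genes had any promoter peak, with or without a main E-box. Most genes with any promoter peak had a member peak, over all genes as in the lists counted next. Any promoter peak was at 7867 of all genes, and 6961 had a member peak. For cytoplasmic ribosomal proteins the counts were 71 and 70, and for mitochondrial ones 66 and 58. They were 62 and 56 for the spliceosome and 39 and 34 for DNA replication. Of the cytoplasmic ribosomal protein list, 70 of 83 genes (84.3%, 75.0 to 90.6) had a member peak, with a median signal of 172, and 8 of the 70 held the TCT initiator sequence CTCTTTCC (0.877% of all 5' ends), while ETS and YY1 were at 5 each. Rpl26 led with a signal of 584, followed by Rpl7l1, a ribosomal protein-like gene caught by its name, at 426, Rps20 at 392 and Rps15 at 350. Aminoacyl-tRNA synthetases, which charge tRNAs, had one at 30 of 33 genes (90.9%, 76.4 to 96.9), led by Nars at 189, Yars2 at 157, Aars2 at 142 and Rars2 at 140. Yars2 and Aars2 held YY1, and Rars2 held ETS. Translation initiation factor genes, matched by name, had one at 40 of 53 (75.5%), among them Eif5 at 240 and Eif2b1 at 233.

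Mitochondrial and protein turnover genes showed like shares. Mitochondrial ribosomal proteins had a member peak at 58 of 76 genes (76.3%), with Mrps7 at 576, a peak shared with Gga3. Respiratory complex I had 33 of 42 (78.6%), led by Ndufc2 at 338. YY1 was at 5 of the 33, Ndufc1 (161) among them, against 4.23% of all members, and ETS was at 2. Mitochondrial protein import had 17 of 22 (77.3%), led by Timm50 at 164. The proteasome had 40 of 50 (80.0%), 7 of them with ETS (7.24% of all members), with Psma2 at 261, Psme4 at 227 and Psmb6 at 208. Ubiquitin-conjugating enzymes had 23 of 32 (71.9%), led by Ube2z at 238, and endosome sorting genes 48 of 71 (67.6%), led by Vps25 at 223.

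Genes of RNA and DNA metabolism followed. The spliceosome list had a member peak at 56 of 67 genes (83.6%), led by Snrpb at 283 and Srsf2 at 252. RNA polymerase II and Mediator had 59 of 78 (75.6%), and 12 of the 59 held ETS, against 7.24% of all members. Taf5, a TFIID subunit, had a signal of 869, Polr2a, the largest polymerase subunit, 634, and Gtf2b, the initiation factor TFIIB, 489. DNA replication genes had one at 34 of 44 (77.3%) and DNA repair genes at 24 of 35 (68.6%), with Pold2 at 158 and Rad50 at 220 the strongest. Of the 34 replication genes 8 held E2F, against 1.27% of all members. These motif counts per list were picked after they were seen, and rest on few genes.

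B cell identity genes had members of high signal that mostly lay outside CpG island-like sequence. On the list of B cell identity and receptor signalling genes, 21 of 30 had a promoter peak of any kind. A member peak was at 17 of the 30 (56.7%, 39.2 to 72.6), with a median signal of 124. The interval is above the share of all genes here, but with promoters of 500 bp or an E-box window of 100 bp the list had 43.3% (27.4 to 60.8), which includes the 29.2% and 27.7% of all genes under those settings. Cd79b, a signalling chain of the B cell receptor, had 298 and held the octamer ATGCAAAT (0.389% of all 5' ends). Spib had 285, the class II invariant chain gene Cd74 249 and the adaptor gene Blnk 200. Genes of the list without a member peak included Cd79a, Btk, Blk, Cd22, Ciita, Ikzf1 and Pou2af1. Of the 17 with one, 3 (17.6%) were CpG island-like, against 67 of 70 (95.7%) for cytoplasmic ribosomal proteins. Any of the 13 called motifs was held by 2 of the 17 (11.8%), against 24.6% of members outside CpG island-like sequence, a small number of peaks from which no difference is read. Activated and germinal centre B cell genes had 18 of 28 (64.3%, 45.8 to 79.3) with a median of 116, led by Nfkbia at 304, Pim1 at 251, Mef2b at 241 and Ccnd2 at 197.

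Of the E proteins, ID proteins and partners, 9 of 21 (42.9%, 24.5 to 63.5) had a member peak, an interval that includes the share of all genes. With the 5' ends of all transcripts it was 57.1% (36.5 to 75.5), above the 33.1% of all genes under that setting. Lmo4 had 160, Tcf4 132, Id2 116 and Id3 113. Tcf12 itself had a member peak at chr9:71959544-71959729, in a UTR exon 4 bp downstream of its 5' end, with a signal of 103 and no listed motif. The peak marks binding at the gene, not its expression.

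Tissue-restricted families of other cell types were at the low end. Olfactory receptors had a member peak at 0 of 1087 genes (upper bound 0.352%), keratins at 1 of 46 (Krt222, 67.5), potassium channels at 6 of 94 (6.38%, led by Kcnk5 at 72.7) and Hox genes at 3 of 40 (7.50%, 37.5 to 44.9 in signal). Zinc finger Zfp genes lay between, with 173 of 365 (47.4%, 42.3 to 52.5), led by Zfp512 at 392.

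**Figure D4:**
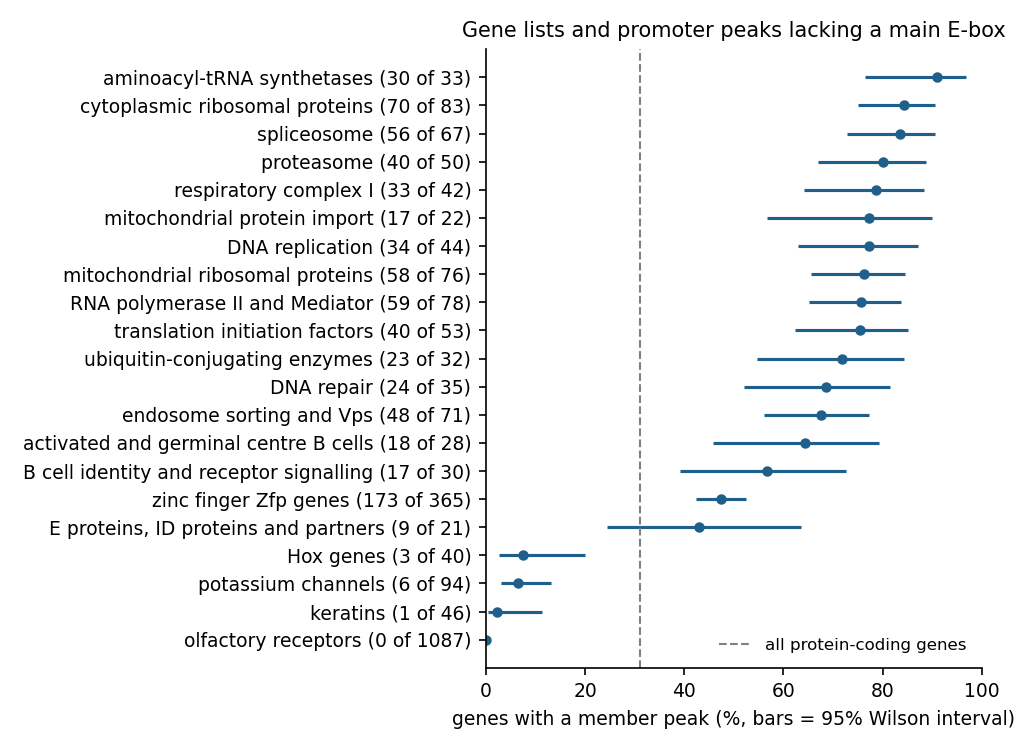
Share of each list's genes with a promoter peak lacking a main E-box (x axis, %, points with 95% Wilson intervals), with the counts beside each name and the 31.1% of all protein-coding genes as a dashed line. Lists of protein synthesis, splicing and mitochondrial genes lie between 75.5% and 90.9%, and Hox, potassium channel, keratin and olfactory receptor genes at 7.50% or below.

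The replicates were compared on mm10, where each was called apart. Genes were joined by symbol and no coordinate was converted. Of 6598 joined genes with a member peak, 5968 (90.5%, 89.7 to 91.1) had a summit of the optimal list within 1 kb of their 5' end. That list was cut by IDR, a measure of repeatability. Of its 35836 peaks, 34805 overlapped a peak of both replicates. An optimal summit was at 90.1% (87.9 to 91.9) of genes whose promoter peaks all held a main E-box. It was at 12.7% of genes with no promoter peak on mm9 and 42.0% of all joined genes. Both builds use the same libraries, so this is a check of the processing, not of new cells.

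Signal was higher in replicate 1 at most member genes. Over 3760 genes with 1 promoter peak on each build and a peak in both replicates, the ratio of replicate 1 to replicate 2 had a median of 1.46 (1.44 to 1.49, interquartile range 1.15 to 1.90), and replicate 1 was higher at 84.2%. The median signal was 37.8 in replicate 1 and 25.8 in replicate 2. The lists were made apart and their scaling is not given, so the ratio of levels mixes scale and enrichment. At 573 genes whose promoter peak held a main E-box the median ratio was 1.62 (1.55 to 1.69), and at all optimal peaks 1.66 (1.65 to 1.67). Over the 13 called motifs the median ratio ran from 1.32 for YY1 (1.26 to 1.39) and ETS (1.28 to 1.38) and 1.34 for CACGTG (1.24 to 1.41) to 1.56 for E2F (1.34 to 1.86) and 1.72 for CTCF (1.41 to 1.91), and members with no listed motif had 1.49 (1.46 to 1.53). NRF1, NF-kappaB and PU.1 were also at or just above that value, with wide intervals. The ratio also went with signal, with medians of 1.40, 1.43, 1.48, 1.48 and 1.57 from the strongest to the weakest of 5 equal groups of these genes, and the part of signal in the values by motif was not tested. Across the member genes the Spearman correlation of the replicates was 0.704, where genes share the libraries and some share a peak.

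**Figure D5:**
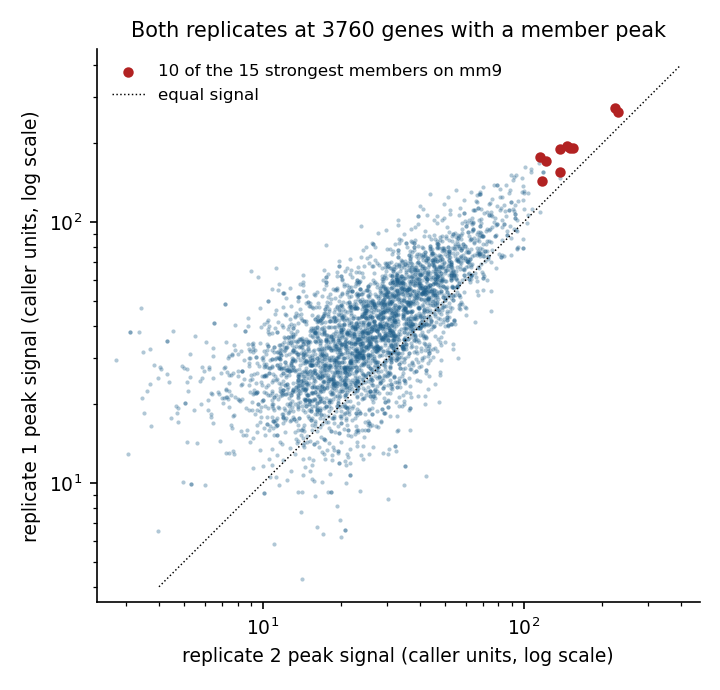
Peak signal in replicate 1 (y axis) against replicate 2 (x axis), both in the caller's units on log scales, at the 3760 genes with a member peak, with the dotted line at equal signal and those of the 15 strongest members that are among them in red. Most points lie above the line, and the red points are at the upper right in both replicates.

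The strongest members were strong in both replicates, but they were chosen by an mm9 signal that joins the same replicates. Lrpprc, an RNA-binding protein of mitochondria, had the highest mm9 signal, 2750, at chr17:85190040-85190421, at -103 bp from the 5' end, and on mm10 it had 273 in replicate 1 and 223 in replicate 2. Bag5, a co-chaperone gene that shares its peak with 2810002N01Rik, had 2221 on mm9 and 264 and 230 in replicates 1 and 2. The mm9 and mm10 scales differ, and on mm10 these 2 stood out less from Taf5, which had 177 in both replicates. Further strong members on mm9 were 0610010K14Rik (710, with 192 and 154 in replicates 1 and 2) and Polr2a (634, with 170 and 113). Anp32e (601) had 192 and 151, and Rpl26 (584) had 144 and 117.

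The other leading members behaved alike. The linker histone gene Hist1h1c (578) had 190 in replicate 1 and 122 in replicate 2, Gga3 (576) 191 and 138, and Gtf2b (489) 172 and 122. Slc25a39 (638), whose window held CACGTG, had 173 and 155. Its summit lay at -662 bp from the 5' end in the mm9 annotation and 67 bp downstream in the RefSeq mm10 annotation. Ccdc109a (478) had 155 and 138, with its summit 7 bp downstream on mm9 and 724 bp downstream on mm10. Hnrnph3 (705) had no optimal summit within 1 kb of its RefSeq 5' end. Of the 15 strongest members, 5 held a motif called higher: Taf5, 0610010K14Rik, Slc25a39, Rpl26 and Hist1h1c.

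The 4 genes of the E protein list named above, chosen by their mm9 signal, had a larger gap between replicates than most member genes. Id2 had 83.4 in replicate 1 and 26.1 in replicate 2, Id3 65.5 and 21.7, Tcf4 90.0 and 34.9 and Lmo4 91.6 and 35.1. Their ratios, 3.20, 3.02, 2.58 and 2.61, were above 1.90, the upper quartile at member genes with 1 promoter peak on each build. Lmo4, with 3 promoter peaks on mm10, is not among those genes. Gaps of this size were not particular to the list, as ratios of 2.88 at Nars, 2.93 at Psme4, 3.35 at Aars2 and 4.07 at Hoxa10 show. Tcf12 itself had 51.4 and 30.1, a ratio of 1.71. Among B cell genes, Cd79b had 135 and 74.7, Spib 132 and 58.6, Cd74 130 and 63.0 and Blnk 86.6 and 64.3. Signal per replicate at housekeeping genes such as Rps20 (149 and 92.1), Psmb6 (84.6 and 73.4) and Snrpb (110 and 84.8) was likewise higher in replicate 1, and at Psmd11 (58.9 and 77.1) and Zfp148 (54.2 and 75.2) it was higher in replicate 2.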

How the data were processed

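The deposited mm9 peak list joins both replicates, and the authors made the mm10 relaxed, conservative and optimal lists from each replicate and both together with a control alignment, per the deposited file descriptions. Which aligner and caller made them is not given in the sources used here. The signal is the authors' deposited caller value with no stated scaling, and the other number used is the deposited summit offset in bp. The score is the deposited scaled IDR score, where 830 stands for an IDR of 0.01.

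Windows were read from NCBIM37 (mm9) with GENCODE vM1 gene 5' ends, using Python 3.11.15, pandas 2.3.3, numpy 2.4.6, scipy 1.17.1 and pysam 0.24.0. Shares have Wilson intervals, differences Newcombe intervals and medians order-statistic intervals, all 95% and for counting error only, with no p-value. The scripts were tested on simulated data. On mm10, genes came from RefSeq GRCm38.p6, joined by symbol or synonym (94.8% of member genes), with the strongest replicate peak overlapping the optimal peak by 1 bp (for named genes, the strongest optimal promoter peak).

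Named are the 15 strongest members, up to 4 of the strongest per list, the strongest member outside exons for each motif called higher, and Tcf12; some were left out for length and a few are not reported here, and the YY1 sites and other exceptions were picked after their values were seen. Members, motifs and lists were chosen with earlier results of these data known. Windows, promoter distance, 5' ends, signal, flanks, peak lists and replicates were varied.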

Additional observations from a re-analysis of the deposited data

How the results depend on the processing

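The share of promoter peaks without a main E-box followed the definition: it was 92.4% with a 25 bp window, 74.8% with 100 bp, 86.9% with promoters of 500 bp, 84.1% with 2 kb and 86.4% among peaks above the median signal, and 84.8% with all transcript 5' ends. The ratio of median signals ran from 0.983 above the median signal to 1.07, so it fell on both sides of 1, and peaks above the median left 4468 genes with a member peak. The number of motifs called higher ran from 12 to 14, and 12 of the 13 were called under each of 7 alternatives; E2F was not called with a 100 bp window (ratio 1.43). Among motifs not called, CAAGTG was called lower with a 25 bp window (0.656), promoters of 500 bp (0.664) and flanks 500 bp away (0.552), where CATCTG (0.657), CAATTG (0.530) and HSF (0.604) were lower too. With flanks 500 bp away the control palindrome was itself called higher, at 1.58, so a called ratio of that size there is also reached by a sequence with no assigned factor. The share of member genes with an mm10 promoter peak was 85.8% at an IDR of 0.01 and 85.2% within 500 bp, and 91.3% to 92.0% when either replicate was left out and as many of the strongest peaks of the other were used. The replicate ratio stayed between 1.45 and 1.48. Above the median signal, where there are fewer peaks, several gene lists had lower shares, such as 45.5% of DNA replication genes and 59.0% of the RNA polymerase II and Mediator list. No paired analysis was possible because there is 1 group. Depth is unknown, and 2 replicates with no stated scaling give no error for single peaks.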

Other observations

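All 8-letter sequences were ranked by their gain at member summits over flanks, a ranking chosen after the data were seen. ETS, SP/KLF and YY1 sequences came first, and then a sequence close to the NRF1 motif but not matched by it as written. GCCTGCGC was in 5.46% of member summits and 1.35% of flanks, and in 2.80% of all protein-coding 5' ends, both strands counted. GCAGGCGC, whose reverse strand shares letters with it, was in 5.19% and 1.22%, and in 2.57% of all 5' ends. With either strand read, each differs in a single letter from a run of 8 letters within the NRF1 motif GCGCATGCG. The NRF1 share of 1.76% of member summits counts only the motif as written. Whether these sequences are NRF1 sites was not tested. Members with GCCTGCGC had a median signal of 72.0, next to 62.7 for all members.

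TATAAAA was rare at member summits, at 0.607% against 0.911% in flanks and 1.92% of all 5' ends, a ratio of 0.667 that was not called. It was called lower under 5 of 7 alternatives, at ratios of 0.394 to 0.587. The 42 members that held it had a median signal of 109 (72.2 to 155), next to 62.6 without it. Ddx5 (350), Hist1h2ac (337), Rps28 (323), Hn1 (294), Tob1 (281) and the antiproliferative gene Btg1 (231) were among the strongest of them, named after their values were seen.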
